A study of Zea mays with 6 samples.

Results

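The stretch described here is a run of 280 neighbouring maize genes in the order of their gene IDs, from Zm00001eb177670 to Zm00001eb185030. Its members were found by summing the deposited FPKM of all transcripts of a gene, keeping genes with 0.5 FPKM or more in at least 3 of the 6 libraries, sorting them by ID and taking ranks 7628 to 7907 of the 18719 genes that passed. FPKM counts the fragments of a transcript relative to its length in kilobases and to every 1000000 fragments of the library. The ranks had been picked because genes that differ between the genotypes lie close together there, so every difference between genotypes given below is a description of the members and not a test of the stretch. The libraries come from leaves of field-grown maize plants 25 days after germination, with 3 libraries labelled WT, the wild type, and 3 labelled edf1-D, a mutant. The line W22 is the background of both genotypes. The labels name no treatment, and they do not say whether a library was made from 1 plant or from a pool, so the spread between replicates may be partly technical.

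W22 is a maize inbred long used in genetics, and by maize convention the suffix D of edf1-D denotes a dominant allele. The gene models to which the fragments were assigned carry IDs of B73, another inbred. A gene model can have several transcripts, which differ in where they start and end or in which exons they join, and software divides the fragments that fit more than one of them. No gene names were used with the IDs here, and the roles of the members, the leaf markers and the gene that carries edf1-D were therefore not looked up. That the IDs run along the chromosomes was not checked.

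The 6 libraries summed to between 416517 and 686251 FPKM over all transcripts, and the 280 members held between 0.713% and 0.919% of that. The number of reads behind a value is unknown. Across the members, Pearson's r of log2(FPKM + 1) was 0.946 to 0.971 for the 6 pairs of libraries of the same genotype and 0.795 to 0.839 for the 9 pairs of different genotypes. Across all 18719 tested genes the same ranges were 0.957 to 0.978 and 0.917 to 0.948. These are correlations across genes, which share libraries and are not replicates.

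Within the stretch 17 members were higher and 24 lower in edf1-D than in WT (limma fitted to all tested genes, Benjamini-Hochberg adjusted p under 0.05; such genes are called below). Over all tested genes 1.45% were called higher and 2.19% lower, 3.64% in both directions together. As the stretch was chosen on these calls, its 14.6% is no result about the members. The libraries of both genotypes did not overlap in 106 members, beside 26.3% of all tested genes. In 40 of them edf1-D was higher (8.37% of all tested genes) and in 66 it was lower (17.9%). Of these 106 members 41 were called and 65 were not. The remaining 174 members had overlapping libraries. With median-ratio scaling of the libraries the called members were 39 higher and 37 lower, and with rescaling to equal sums (TPM) 24 higher and 40 lower. Shares over all tested genes were counted only for the unscaled fit with all 6 libraries. Counts of called members under other settings, here and below, thus cannot be set beside those of other genes.

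Fewer members were called with any 1 of the 6 libraries left out. Each such fit has fewer libraries in one genotype, so calls can be lost whichever library is left out. A lost call, here and below, does not by itself show that the difference rested on that library. Without WT replicate 1 the called members were 14 higher and 15 lower, without WT replicate 2 they were 11 and 9, and without WT replicate 3 they were 9 and 21. Without edf1-D replicate 1 they were 7 and 13, without edf1-D replicate 2 they were 11 and 19, and without edf1-D replicate 3 they were 12 and 11. A core of 7 higher and 8 lower members was called in all 6 of these fits. Its higher members include Zm00001eb178810, Zm00001eb181040 and Zm00001eb184150, and its lower ones Zm00001eb181260, Zm00001eb182470 and Zm00001eb184660. These passed the filter only through the genotype where they are high, so they had to differ, and their staying called says nothing more.

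**Figure D1:**
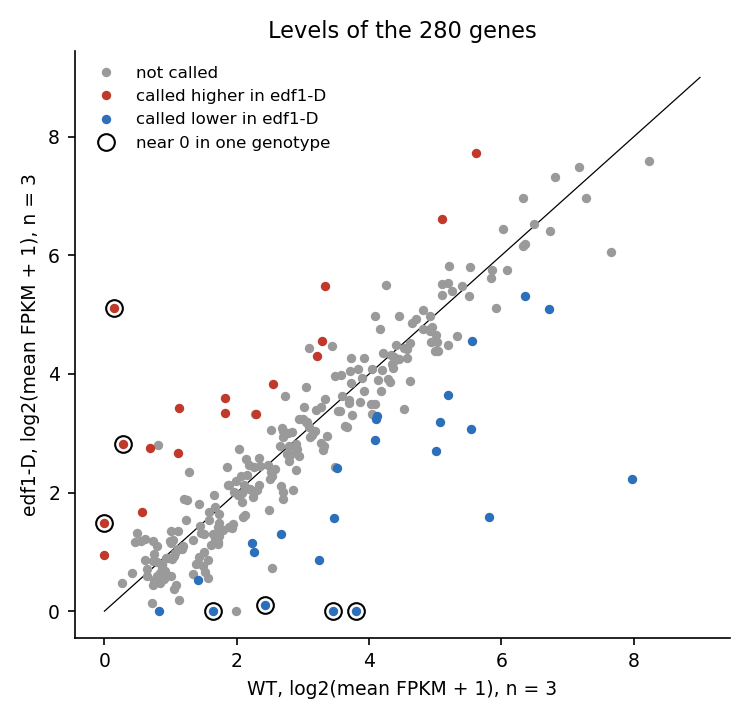
Mean level of each of the 280 members in WT (x axis) and edf1-D (y axis), as log2(mean FPKM + 1) over 3 libraries, with called members in colour and the 7 members near 0 in one genotype ringed. Most members lie along the diagonal, while 17 stand above it and 24 below it as called.

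In level the members resembled the tested genes as a whole. Their median WT level was 5.51 FPKM, beside 5.49 FPKM over all tested genes, and 36.1% of members and 35.6% of all tested genes reached 10 FPKM in WT. A single annotated transcript was held by 112 members (40.0%), beside 42.8% of tested genes. The median spread between replicates was an SD of 0.29 on the log2(FPKM + 1) scale in WT and 0.23 in edf1-D, and over all tested genes 0.28 and 0.23. The median log2 fold change of the members was -0.13, beside -0.12 over all tested genes. Over all tested genes it was -0.22 with TPM, 0.002 with median-ratio scaling and -0.01 after quantile normalization. Median-ratio scaling and quantile normalization align the libraries, so a median near 0 follows from them. Members listed at 0 in one genotype enter the median of the members by their direction, not their size. Members that were not called still ran from -1.76 to 1.76 on this scale.

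The number of called members varied along the stretch, and whether it varied more than a random scatter would was not tested. Dense and sparse describe these counts only. In bins of 20 consecutive members, the third and the last bin (ranks 7668 to 7687 and 7888 to 7907) held 6 called members each. The third held 3 higher and 3 lower members, and the last held 1 higher and 5 lower. The eighth bin, ranks 7768 to 7787, held 0 called members by limma, where 4 had an unadjusted p under 0.05 and 5 had libraries that did not overlap between genotypes. On both sides the calls were thinner, which is no result, as the stretch was chosen on these calls. The 140 tested genes before it held 6 higher and 5 lower genes (7.86% called). The 140 after it held 3 and 2 (3.57%), beside 3.64% of all tested genes. Libraries did not overlap in 33.6% of the genes before and 29.3% of those after, beside 37.9% of members and 26.3% of all tested genes. The ends of the stretch are not sharp, since the nearest called genes outside lay at ranks 7617 and 7921.

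**Figure D2:**
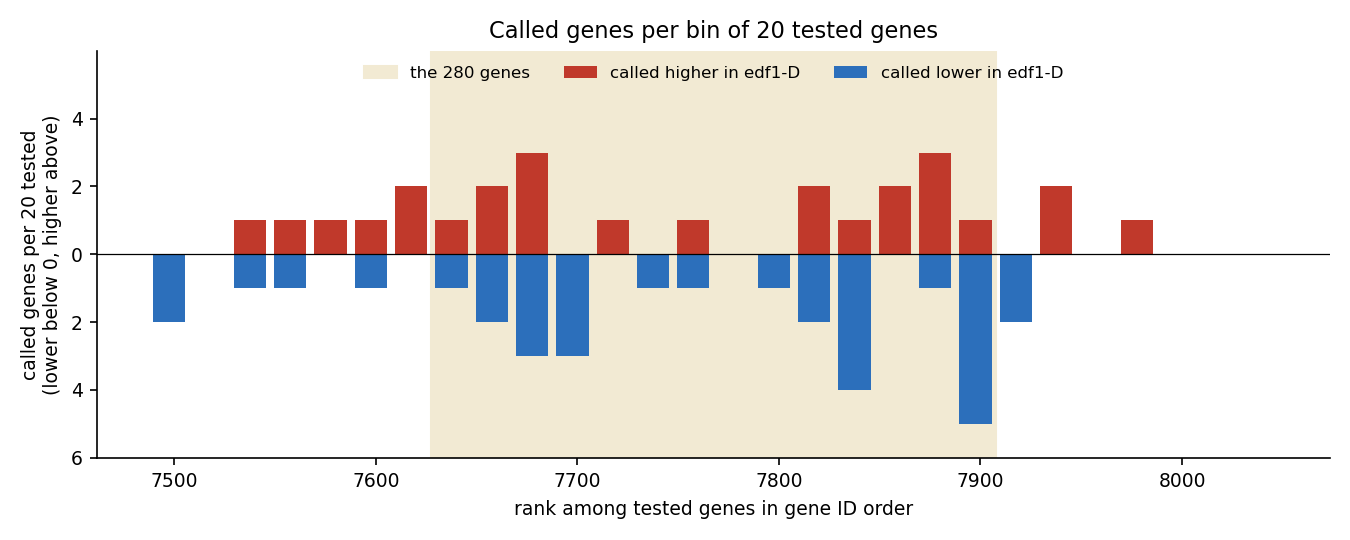
Called genes in bins of 20 tested genes along the ID order, higher in edf1-D above 0 and lower below 0, with the 280 members shaded and 140 tested genes on each side. The shaded stretch is sparse in its middle, with 0 called members in ranks 7768 to 7787 and 6 each in ranks 7668 to 7687 and 7888 to 7907.

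Higher and lower called members were interleaved, and whether their order differed from a random one was not tested. Reading only the called members in order, the 41 formed 12 runs of higher and 12 runs of lower genes, and 9 and 6 of these were single genes. Of the 40 steps from one called member to the next, 17 kept the direction. The longest run of lower genes had 5 members (ranks 7894 to 7902) and the next 4 (ranks 7681 to 7696). The longest run of higher genes had 4 members (ranks 7870 to 7890), and the next were 2 runs of 2, at ranks 7651 to 7656 and 7849 to 7858. Of the 10 pairs of called members with consecutive ranks, 6 were of opposite direction.

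**Figure D3:**
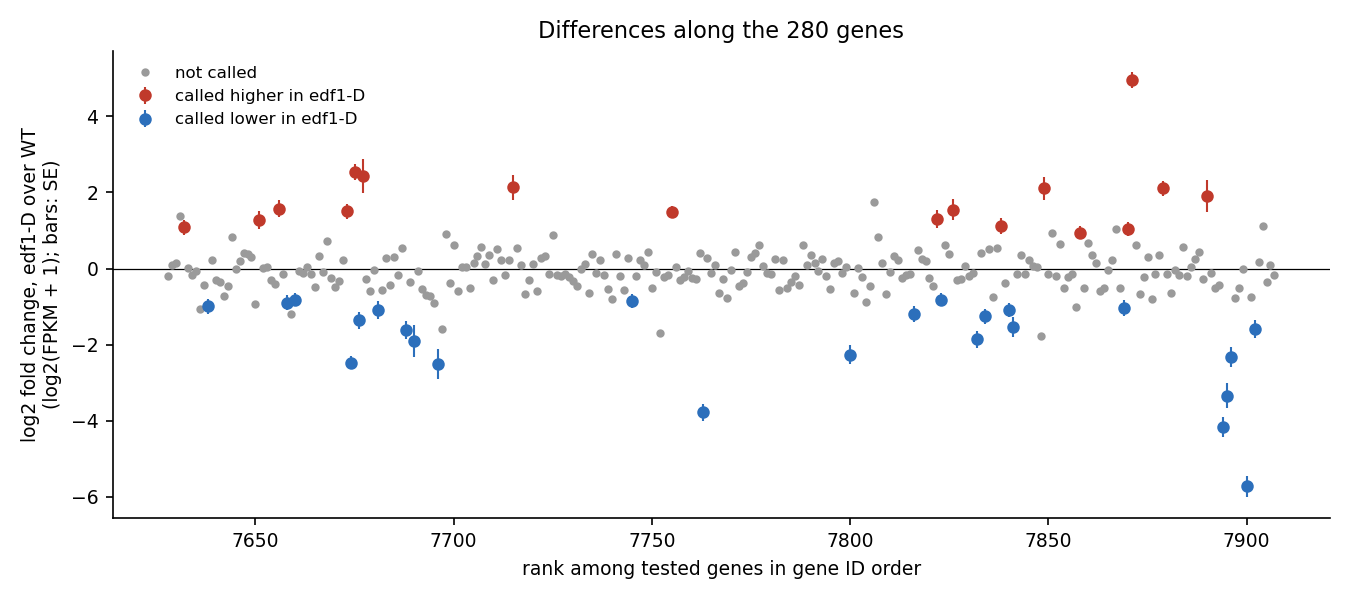
Log2 fold change of edf1-D over WT on the log2(FPKM + 1) scale (y axis) for each of the 280 members by rank (x axis), with SE bars on called members. Higher and lower members interleave around rank 7675, and 5 lower members follow a run of 4 higher ones at the right end. The size for members listed at 0 in every library of one genotype depends on the pseudocount of 1.

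The first dense place opened with a pair of higher members. Zm00001eb178240 stood at 4.02, 6.27 and 4.22 FPKM in WT replicates 1 to 3 and at 12.5, 16.9 and 10.2 FPKM in edf1-D, a log2 fold change of 1.28 ± 0.24 (SE). Zm00001eb178340 stood at 1.33, 1.41 and 0.72 FPKM in WT and at 5.53, 6.17 and 4.45 FPKM in edf1-D, a log2 fold change of 1.58 ± 0.22 (SE). The edf1-D libraries lay above all WT libraries in both. The call of Zm00001eb178240 was lost without WT replicate 1 or 3, without edf1-D replicate 1 or 2 and without the filter, while Zm00001eb178340 was called in all 6 fits with a library left out.

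Ranks 7673 to 7677 were 5 consecutive tested genes that were all called, in alternating directions. Zm00001eb178690, the first, had 32.0, 37.4 and 30.4 FPKM in WT and 100.8, 108.8 and 80.3 FPKM in edf1-D, a log2 fold change of 1.504 ± 0.19 (SE). The ID that follows it in the table, Zm00001eb178700, had 45.7, 51.4 and 40.1 FPKM in WT and 7.57, 7.89 and 6.65 FPKM in edf1-D, a log2 fold change of -2.48 ± 0.18 (SE). These neighbours were thus at like levels in WT and far apart in edf1-D, with no overlap between the genotypes in either.

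The third of the 5, Zm00001eb178810, was at 0.49, 0.15 and 0.02 FPKM in WT and at 6.34, 6.62 and 5.11 FPKM in edf1-D. The next ID in the table, Zm00001eb178820, went the other way, from 6.72, 4.86 and 4.49 FPKM in WT to 1.93, 1.53 and 0.96 FPKM in edf1-D, with a log2 fold change of -1.37 ± 0.23 (SE). It is named because it lies inside this series of 5, a choice made after its values were seen, and its call was lost without WT replicate 1, WT replicate 2 or edf1-D replicate 3. The last, Zm00001eb178840, was less even, with 2.59, 0 and 0.96 FPKM in WT and 8.25, 13.9 and 6.97 FPKM in edf1-D. All its edf1-D libraries were above all WT libraries, with a log2 fold change of 2.43 ± 0.45 (SE), or 3.83 with a pseudocount of 0.1. Its call was lost in 4 of the 6 fits with a library left out (WT replicates 2 and 3, edf1-D replicates 1 and 3), with a pseudocount of 0.1, without the filter and with the replicate number as a block.

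**Figure D4:**
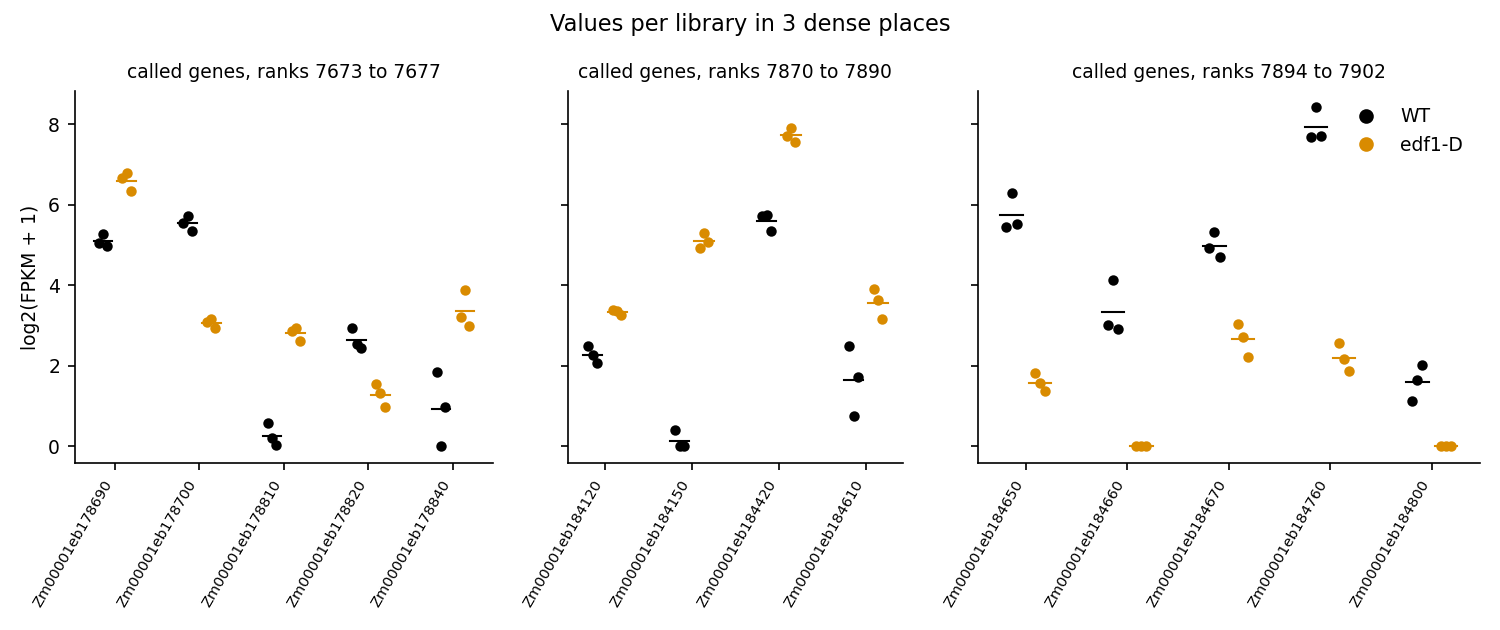
Log2(FPKM + 1) in each library (points) and its mean over 3 libraries (lines) for the called members in 3 dense places, WT in black and edf1-D in orange. In ranks 7673 to 7677 the higher genotype alternates from gene to gene, and in ranks 7894 to 7902 all 5 called genes are lower in edf1-D.

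The run of 4 lower members at ranks 7681 to 7696 followed at once. Its most abundant gene, Zm00001eb179090, had 116.0, 115.9 and 80.7 FPKM in WT and 34.0, 40.2 and 25.5 FPKM in edf1-D, a log2 fold change of -1.62 ± 0.24 (SE), and its call was lost without WT replicate 2. Zm00001eb179260 had 10.6, 8.16 and 6.55 FPKM in WT and 0.45, 2.01 and 0 FPKM in edf1-D. The log2 fold change was -2.51 ± 0.39 (SE), or -4.10 with a pseudocount of 0.1, where the call was lost, as it was without the filter and without WT replicate 2 or edf1-D replicate 1. In Zm00001eb179140 the replicates were far apart, with 15.1, 10.01 and 5.30 FPKM in WT and 3.52, 0.87 and 1.48 FPKM in edf1-D. The lowest WT library still lay above the highest edf1-D library, with a log2 fold change of -1.91 ± 0.42 (SE), and the call was lost in 4 of the 6 fits with a library left out (WT replicates 1 and 2, edf1-D replicates 2 and 3), with a pseudocount of 0.1 and without the filter.

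The middle of the stretch held few called members. Zm00001eb179680, at rank 7715, had 13.1, 6.89 and 7.32 FPKM in WT and 48.8, 55.6 and 27.0 FPKM in edf1-D, a log2 fold change of 2.14 ± 0.33 (SE), and its call was lost without WT replicate 2 or edf1-D replicate 1. The groups did not overlap, although edf1-D replicate 3 was well below the other edf1-D libraries. Between ranks 7716 and 7815 there were 4 called members, of which 3 were near 0 in one genotype and are given further on.

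Calls became dense again from rank 7816. Between ranks 7822 and 7841 there were 3 higher and 5 lower members, interleaved and in runs of at most 2. The pair of higher members that followed included Zm00001eb183690, at rank 7849, which had 1.01, 0.83 and 0 FPKM in WT and 5.51, 7.19 and 4.58 FPKM in edf1-D. Its log2 fold change came to 2.11 ± 0.30 (SE), and 3.62 with a pseudocount of 0.1, where it was no longer called. It was called with any 1 library left out.

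A run of 4 higher members spanned ranks 7870 to 7890. Its most abundant gene, Zm00001eb184420, had 52.1, 52.6 and 39.6 FPKM in WT and 209.4, 237.4 and 185.8 FPKM in edf1-D, a log2 fold change of 2.11 ± 0.20 (SE). Every edf1-D library was more than 3 times as high as every WT library, and the call held with any 1 library left out. The last of the run, Zm00001eb184610, was uneven, with 4.59, 0.70 and 2.32 FPKM in WT and 14, 11.4 and 7.94 FPKM in edf1-D, a log2 fold change of 1.91 ± 0.42 (SE). It lost its call without any 1 library other than WT replicate 1, with a pseudocount of 0.1 and without the filter.

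Right after it came the longest run, 5 lower members within 9 tested genes. The first 3 of them have consecutive IDs in the table. Zm00001eb184650 had 42.6, 77.4 and 45.1 FPKM in WT and 2.52, 1.96 and 1.59 FPKM in edf1-D, a log2 fold change of -4.17 ± 0.26 (SE). Zm00001eb184660 had 7.02, 16.4 and 6.50 FPKM in WT and was listed at 0 in every edf1-D library. Zm00001eb184670 had 29.2, 38.9 and 25.2 FPKM in WT and 7.27, 5.57 and 3.67 FPKM in edf1-D, a log2 fold change of -2.32 ± 0.26 (SE). In all 3 genes WT replicate 2 was the highest library, and all edf1-D libraries were far below WT.

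Zm00001eb184760, at rank 7900, had the largest log2 fold change of the stretch in size with the pseudocount of 1. With a pseudocount of 0.1 it was -6.04, and Zm00001eb184150 (7.69), Zm00001eb181260 (-7.00) and Zm00001eb184660 (-6.52) were further from 0. Zm00001eb184760 had 202.7, 340.3 and 209.5 FPKM in WT and 4.97, 3.52 and 2.65 FPKM in edf1-D, a log2 fold change of -5.73 ± 0.27 (SE). Between it and Zm00001eb184670 lay 3 tested genes that were not called. WT replicate 2 was the highest library in these 3 as well. One of them, Zm00001eb184710, was also lower without overlap, at 48.8, 81.0 and 47.9 FPKM in WT and 42.2, 31.2 and 27.3 FPKM in edf1-D. Zm00001eb184650, Zm00001eb184670 and Zm00001eb184760 were called in every fit with a library left out.

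Some members were near 0 in one genotype, meaning under 0.5 FPKM in all its libraries and at 1 FPKM or more in all libraries of the other. There were 7 such members, 3 near 0 in WT and 4 near 0 in edf1-D, beside 0.914% of all tested genes (0.331% in WT and 0.582% in edf1-D). They lay at ranks 7675, 7755, 7763, 7800, 7871, 7895 and 7902, so both kinds were present along the stretch. By this definition all 7 passed the filter through the genotype where they are high, so they had to differ, and nothing is read from their being called. A value of 0 can also mean that too few reads were sampled, as their number is unknown.

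The most abundant of those near 0 in WT was Zm00001eb184150, at 0.32 FPKM in WT replicate 1 and listed at 0 in the other WT libraries. It stood at 29.3, 38.4 and 32.5 FPKM in edf1-D, a log2 fold change of 4.96 ± 0.21 (SE), and 7.69 with a pseudocount of 0.1. Zm00001eb178810, given above, had a log2 fold change of 2.54 ± 0.21 (SE), and 4.55 with a pseudocount of 0.1. Zm00001eb181040, at 0 in all WT libraries, stood at 1.86, 1.70 and 1.83 FPKM in edf1-D.

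Of those near 0 in edf1-D, Zm00001eb181260 was the highest in WT, at 13.3, 16.2 and 9.48 FPKM, and was listed at 0 in every edf1-D library, as was Zm00001eb184660. Zm00001eb182470 had 5.39, 5.09 and 2.63 FPKM in WT and 0.14, 0.10 and 0 FPKM in edf1-D, a log2 fold change of -2.27 ± 0.25 (SE), and -4.66 with a pseudocount of 0.1. Zm00001eb184800, the last called member of the stretch, had 1.20, 2.14 and 3.04 FPKM in WT and was listed at 0 in every edf1-D library. Its call was lost without WT replicate 2.

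Other members came close to this pattern without meeting it. Zm00001eb183650 had 0.53, 5.20 and 3.11 FPKM in WT and was listed at 0 in every edf1-D library, and it was not called. Zm00001eb183150 was listed at 0 in edf1-D and had 0.78, 1.01 and 0.53 FPKM in WT. Zm00001eb183910 was listed at 0 in WT and had 1.10, 0.96 and 0.73 FPKM in edf1-D. These were chosen after their values were seen. With them, 7 members were listed at 0 in every library of one genotype, 2 in WT and 5 in edf1-D, beside 0.491% of all tested genes.

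Transcript shares changed in 5 of the 52 members with usable isoforms, that is, with at least 5 FPKM on average, 1 FPKM in every library and transcripts at mean shares of 10% to 90% (limma on the log2 ratio of a transcript to the other transcripts of the gene, adjusted p under 0.05). Over all 2671 genes with usable isoforms 1.20% were called. This contrast is the one on which the stretch was chosen. The same count of 5 was found in each of the other isoform fits. The gene total was called higher in 1 of the 5, lower in 2 and not called in 2. Shares of transcripts are less certain than gene totals, because a fragment can fit several transcripts.

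In Zm00001eb180080 the main transcript was replaced while the total hardly moved. Transcript T003 held 90.1%, 89.0% and 88.1% of the gene's FPKM in WT replicates 1 to 3 and 2.95%, 4.31% and 2.003% in edf1-D. Transcript T001 held 0.587%, 0.0382% and 5.05% in WT and 73.7%, 70.9% and 78.8% in edf1-D. The total was 93.7, 78.6 and 64.4 FPKM in WT and 71.9, 79.8 and 58.4 FPKM in edf1-D, so the groups overlapped and the gene was not called.

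Zm00001eb178690 also had another leading transcript in each genotype. Its T002 made up 88.3% ± 0.467 (SD, n = 3) of the gene in WT and 14.02% ± 2.41 (SD, n = 3) in edf1-D. Its T004 made up 8.13% ± 2.74 in WT and 79.5% ± 2.27 in edf1-D (SD, n = 3 each). In FPKM, T004 went from 2.74, 3.97 and 1.58 to 78.4, 89.2 and 63.1, while T002 went from 28.1, 33.1 and 27.0 to 15.1, 12.3 and 12.7. The higher total of this gene in edf1-D was thus carried by T004. These 2 members were the ones in the stretch, of 97 compared, in which every WT library was led by one transcript and every edf1-D library by a different one, beside 0.514% of all genes compared.

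In Zm00001eb179090 the WT libraries differed among themselves. T002 held 98.03%, 28.1% and 12.6% in WT replicates 1 to 3, and T001 held 1.24%, 70.3% and 86.9%. Together these 2 transcripts made up nearly all of the gene in WT. In edf1-D T002 was listed at 0 in every library, and T003 held 97.97%, 82.0% and 91.0%, beside 0.725%, 1.65% and 0.557% in WT. Only the share of T003 was called in this gene.

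**Figure D5:**
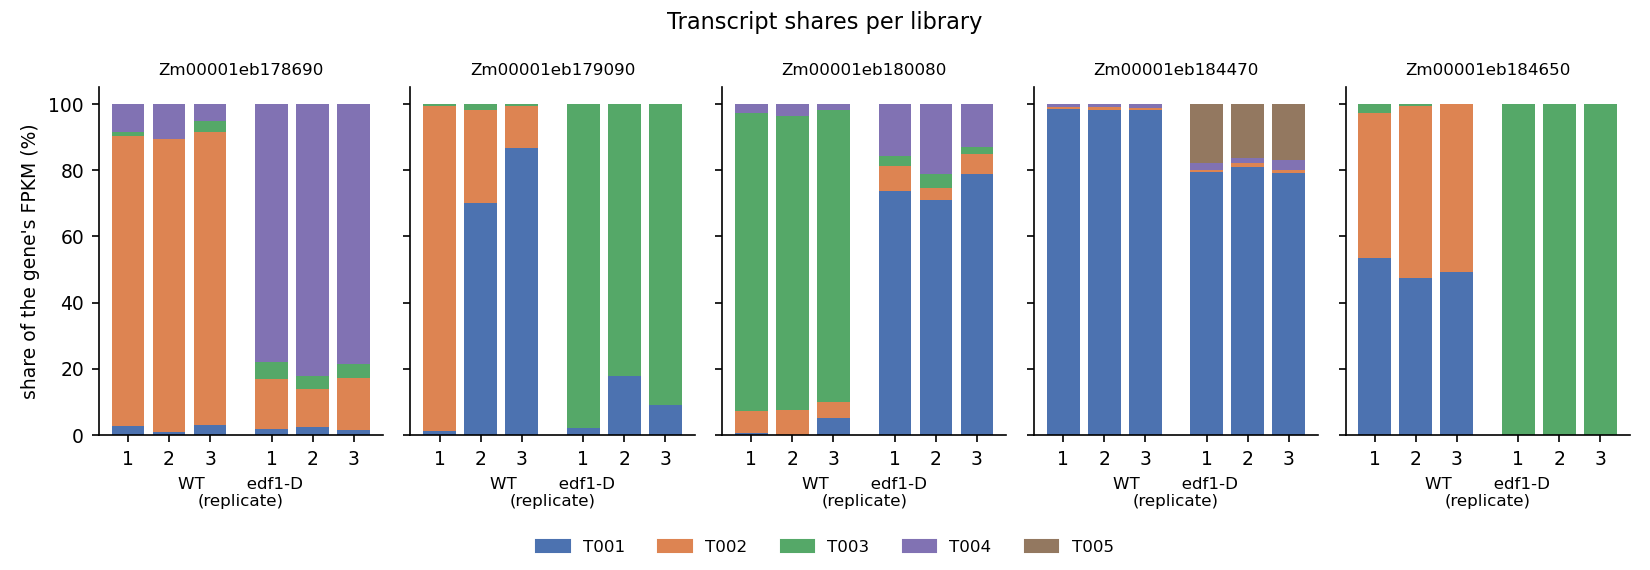
Share of each annotated transcript (T001 to T005) in the gene's summed FPKM, in percent, for each library of the 5 members with a called share change. In 4 of the 5 genes the transcript that fills most of the edf1-D bars holds at most 10.6% of any WT bar, and in Zm00001eb184470 T001 leads in all 6 libraries.

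The lower total of Zm00001eb184650 in edf1-D went with a change of transcript as well. T001 and T002 each held between 43.7% and 53.5% in WT and were listed at 0 in every edf1-D library. All that was left in edf1-D, 2.52, 1.96 and 1.59 FPKM, was assigned to T003, which had 1.16, 0.56 and 0 FPKM in WT. T003 was the only transcript of this gene with a called share. In Zm00001eb184470 the change was smaller in share. T001 held 98.4% ± 0.138 (SD, n = 3) in WT and 79.8% ± 1.04 (SD, n = 3) in edf1-D, while T005 held 0.0601% ± 0.0532 and 17.1% ± 0.810 (SD, n = 3 each). T005 stood at 0, 0.26 and 0.26 FPKM in WT and at 36.3, 33.9 and 27.9 FPKM in edf1-D. Only the share of T001 was tested in Zm00001eb184470, and it was called.

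Applied to single transcripts, a comparison added after seeing the data, the near-0 rule was met by 13 of the 688 transcripts of the members, in 12 genes, beside 0.625% of the transcripts of all tested genes. Among the 13 are transcripts of the members already given as near 0 in one genotype. Where such a member has a single transcript, its values are repeated. Of the 13, 5 were near 0 in WT and 8 in edf1-D. They included T008 of Zm00001eb178810 and T004 of its neighbour Zm00001eb178820, the first near 0 in WT and the second in edf1-D. In Zm00001eb182900, whose total was not called, T001 had 0.35, 0 and 0.19 FPKM in WT and 1.44, 1.86 and 1.71 FPKM in edf1-D.

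The 5 most abundant members by the mean over all 6 libraries were not called. That mean ranks members that differ between genotypes lower than their higher genotype would: called Zm00001eb184420 had the highest mean of all members in edf1-D (210.9 FPKM), and called Zm00001eb184760 the second highest in WT (250.8 FPKM). Zm00001eb184470 led them with 309.6, 330.0 and 256.5 FPKM in WT and 202.2, 207.4 and 164.6 FPKM in edf1-D. Its libraries did not overlap, with a log2 fold change of -0.64 ± 0.20 (SE), and it was called lower with each of the 3 other scalings tried and with the replicate number as a block. Zm00001eb179490 had 135.6, 173.2 and 119.2 FPKM in WT and 172.6, 209.2 and 152.4 FPKM in edf1-D, and its groups overlapped. It was called higher with median-ratio scaling alone among the settings tried. Zm00001eb179570 had 135.1, 110.5 and 86.1 FPKM in WT and 155.1, 197.5 and 125.5 FPKM in edf1-D, also with overlap, and was called higher with each of the 3 other scalings.

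The other 2 were marked by single libraries. Zm00001eb180950 had 369.3, 128.7 and 102.7 FPKM in WT and 30.5, 130.5 and 34.8 FPKM in edf1-D. WT replicate 1 stood far above the other WT libraries, and edf1-D replicate 2 lay within the WT range. Without edf1-D replicate 2 the gene was called lower, with a log2 fold change of -2.35 instead of -1.69. Zm00001eb183220 had 237.6, 144.4 and 82.1 FPKM in WT and 107.5, 192.9 and 72.6 FPKM in edf1-D, with overlap between the groups. Its log2 fold change turned from -0.30 to 0.07 without WT replicate 1 and to 0.03 without edf1-D replicate 3.

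The interval of IDs from the first to the last member held 737 IDs, of which the 280 members (38.0%) passed the filter, beside 42.3% of all 44303 IDs. Of the 457 IDs that missed it, 278 were listed at 0 in all 6 libraries, 37 reached 0.5 FPKM in 1 library and 20 in 2. Among the members, 9 passed only through the WT libraries and 4 only through the edf1-D libraries, so these 13, which include the 7 near 0 in one genotype, had to differ. Just inside the filter lay Zm00001eb178960, whose WT libraries had 0.46, 0.71 and 0.51 FPKM and whose edf1-D libraries had 0.44, 0.48 and 0.61 FPKM. Just outside lay Zm00001eb184920, with 0.30, 0.08 and 0.40 FPKM in WT and 0.85, 0.73 and 0.49 FPKM in edf1-D. At the ends of the stretch, Zm00001eb177670 (rank 7628) and Zm00001eb185030 (rank 7907) had log2 fold changes of -0.20 ± 0.17 and -0.18 ± 0.19 (SE). Their neighbours outside, Zm00001eb177640 (rank 7627) and Zm00001eb185070 (rank 7908), had 0.22 ± 0.18 and 0.01 ± 0.18 (SE).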

How the data were processed

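The deposited tables give 1 value per transcript and library for 77341 transcripts of 44303 genes. Their unit is not named in any header. Decimals and unequal library sums led to taking the deposited values as FPKM, with TPM as an alternative. Per the submitters' processing notes, HISAT2, RSEM, Trimmomatic 0.36 and DESeq2 were used. Their roles and the genome build are not given in the sources used here. Values were summed by gene, and edf1-D was compared with WT by limma 3.58.1 (R 4.3.3) with an intensity trend on log2(FPKM + 1), without covariates, over all 18719 genes at 0.5 FPKM or more in 3 libraries, with Benjamini-Hochberg adjustment and a threshold of 0.05. Fold changes on this scale understate those of low genes. Isoform ratios had 1 added to both sides and no trend. Only the gene fit was run on simulated data, with changes set in genes with a mean log2(FPKM + 1) above 3. Changes in low genes and in isoform ratios were not covered. Reads of near-identical copies, and of overlapping or antisense genes, may not have been told apart. Of the IDs, 0 were found in the RefSeq table used here (B73). Members, lists and tests were chosen with earlier results of these data known. Genes named are the 8 highest and 8 lowest called fold changes at 5 FPKM or more, members near 0 or with changed isoforms, the most abundant gene of the 2 longest runs in each direction, the 5 most abundant members and the edges. Alternatives were scaling, pseudocount, filter, threshold, robust variances, the replicate block and each library left out.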

Additional observations from a re-analysis of the deposited data

How the results depend on the processing

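The called members, 17 higher and 24 lower, numbered 39 and 37 under median-ratio scaling, 24 and 40 with TPM plus 1, 34 and 34 with quantile normalization, 10 and 17 without a filter, and 7 and 9 at an adjusted p under 0.01. Leaving out 1 library gave 7 to 14 higher and 9 to 21 lower members. The replicate block gave 20 and 26. The share of all tested genes called was not counted under these other settings, so a rise or fall may not be particular to the members. The replicate numbers were not taken as pairs, since deviations of same-numbered libraries from their group means correlated at -0.19, -0.01 and 0.35 across genes. Those of differently numbered libraries correlated at -0.39 to 0.36. Replicate 3, at 0.35, had the lowest FPKM sum in both genotypes (416517 in WT and 472269 in edf1-D). Members near 0, 7 as reported, were 4 when listed at 0 was required and 7 to 10 with 1 library left out. The count of members with an isoform share change was 5 in each of the isoform fits, the replicate block included. Only the count was compared, not which members made it up. The stricter leading-transcript comparison was met by 2 members. The other settings stayed within 1.5 times. Of the 22 called members named by rule, 13 were called in all 12 settings run on them. The 13 included members near 0 in one genotype, which had to differ. For each of these differences, the cause was not tested. Unknown depth limits statements on members near 0.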
